A study of Mus musculus with 6 samples.

Results

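The genes described here take up arginine in the cell and turn it into nitric oxide, ornithine and polyamines. They were chosen by name as the rows for Slc7a2, Arg1, Arg2, Nos2, Ass1, Asl, Ddah2, Odc1 and Sat1, which are 9 of the 22377 genes in the table. RNA sequencing of mouse tumor-associated macrophages (TAMs) was deposited as 6 libraries, 3 labelled wt and 3 labelled ko. According to the study's methods, TAMs were sorted from subcutaneous Lewis lung carcinoma (LLC) tumors of Npm1+/+ and Npm1+/- mice. The sort took cells positive for CD45, CD11b and F4/80. Npm1 encodes nucleophosmin, a chaperone of the nucleolus, and the comparison asks how the TAM transcriptome differs when 1 allele of it is lost. Mice of both sexes entered the study as young adults, and the age and sex behind each library are not given. The labels call the ko group a knockdown, name tumor tissue as the source and describe a TRIzol extract with a small RNA library protocol, whereas the methods describe sorted cells, a column extract and a low-input mRNA kit. These descriptions could not be reconciled. The study calls the Npm1+/- mice haploinsufficient and names no promoter or cell type that would restrict the loss to macrophages. The implanted LLC cells are a mouse cell line that the study uses as a syngeneic model, and they do not come from these mice.

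Arginine enters macrophages through cationic amino acid transporters. Nitric oxide synthase oxidizes it to nitric oxide and citrulline, while arginase splits it into urea and ornithine, so both enzymes draw on the same substrate. Citrulline can be returned to arginine by argininosuccinate synthase and lyase, and ornithine can be decarboxylated to putrescine, the first polyamine. In TAMs, high arginase 1 is widely used as a marker of alternative (M2) polarization and high inducible nitric oxide synthase as a marker of classical (M1) polarization.

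The targeted gene did not follow its label. Npm1 was measured at 142, 380.2 and 381 CPM (counts over the library total, scaled by edgeR's TMM factors) in the libraries labelled wt and at 441, 499 and 343 CPM in those labelled ko. Its log2 fold change (ko minus wt) was 0.51 with a standard error of 0.36 (edgeR adjusted p = 0.436), and the estimate was positive under each scaling tried. Without wt replicate 1 it was 0.16 in edgeR and 0.14 in DESeq2. Groups are therefore called here by their labels, and every direction below is that of libraries labelled ko against libraries labelled wt.

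Libraries held 36550775 to 38147320 counts. Library wt replicate 1 stood apart, at -108 on the first principal component against -4.54 to 52.0 for the other 5 libraries, and that component took 67.99% of the variance. All 12 macrophage markers were read in every library. Their summed level was 21337 to 26607 CPM in the wt libraries and 12879 to 21842 CPM in the ko libraries, which overlap. Of the 12, 7 were lower in ko without overlap between the groups, against 12.6% of all genes tested. The 10 neutrophil markers summed to 1892 to 2120 CPM in wt and 839 to 1612 CPM in ko, without overlap. Of the 9 neutrophil markers tested, 5 were lower in ko without overlap, against the same 12.6%. The 10 fibroblast markers summed to 32.7 to 491 CPM in wt and 368 to 714 CPM in ko, the lowest being wt replicate 1, and 6 T cell markers to 21.4 to 92.7 CPM and 73.1 to 202 CPM. The 7 epithelial or carcinoma markers summed to 36.1 to 138 CPM in wt, again lowest in wt replicate 1, and 129 to 192 CPM in ko. Defining markers of macrophages, neutrophils and fibroblasts were at 0 in none of the libraries. In bulk RNA of this kind, fewer cells of a type and less RNA per cell cannot be told apart. The part of these shifts in the differences below was not tested. For some genes a value scaled to the macrophage markers is given. That scaling uses the summed counts of the list, so the markers with most counts weigh most. In FPKM, Lyz2 (6145 to 12475) and Cd14 (2343 to 4421) were the highest, with Itgam next (365 to 593).

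No gene passed an adjusted p of 0.05 in edgeR's quasi-likelihood test, 0 of 13884 (0%), so none of the 9 genes is called changed. At an unadjusted p under 0.05, 2112 genes (15.2%) were counted, of which 958 (6.9%) were higher and 1154 (8.31%) lower in ko, and they included 2 of the 9 genes, Odc1 higher and Nos2 lower. DESeq2 on the same libraries called 36 of 13699 genes (0.263%), none of them among the 9, and limma on the deposited FPKM values called 0. The groups did not overlap for 2 of the 9 genes, Odc1 and Ddah2, against 3593 of all genes tested (25.9%). The median log2 fold change was -0.17 over the 9 genes and 0.02 over all genes tested. Estimates were higher in ko for 4 and lower for 5 of the 9 genes. Over all 13884 genes tested, 7228 were higher and 6656 lower.

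**Figure D1:**
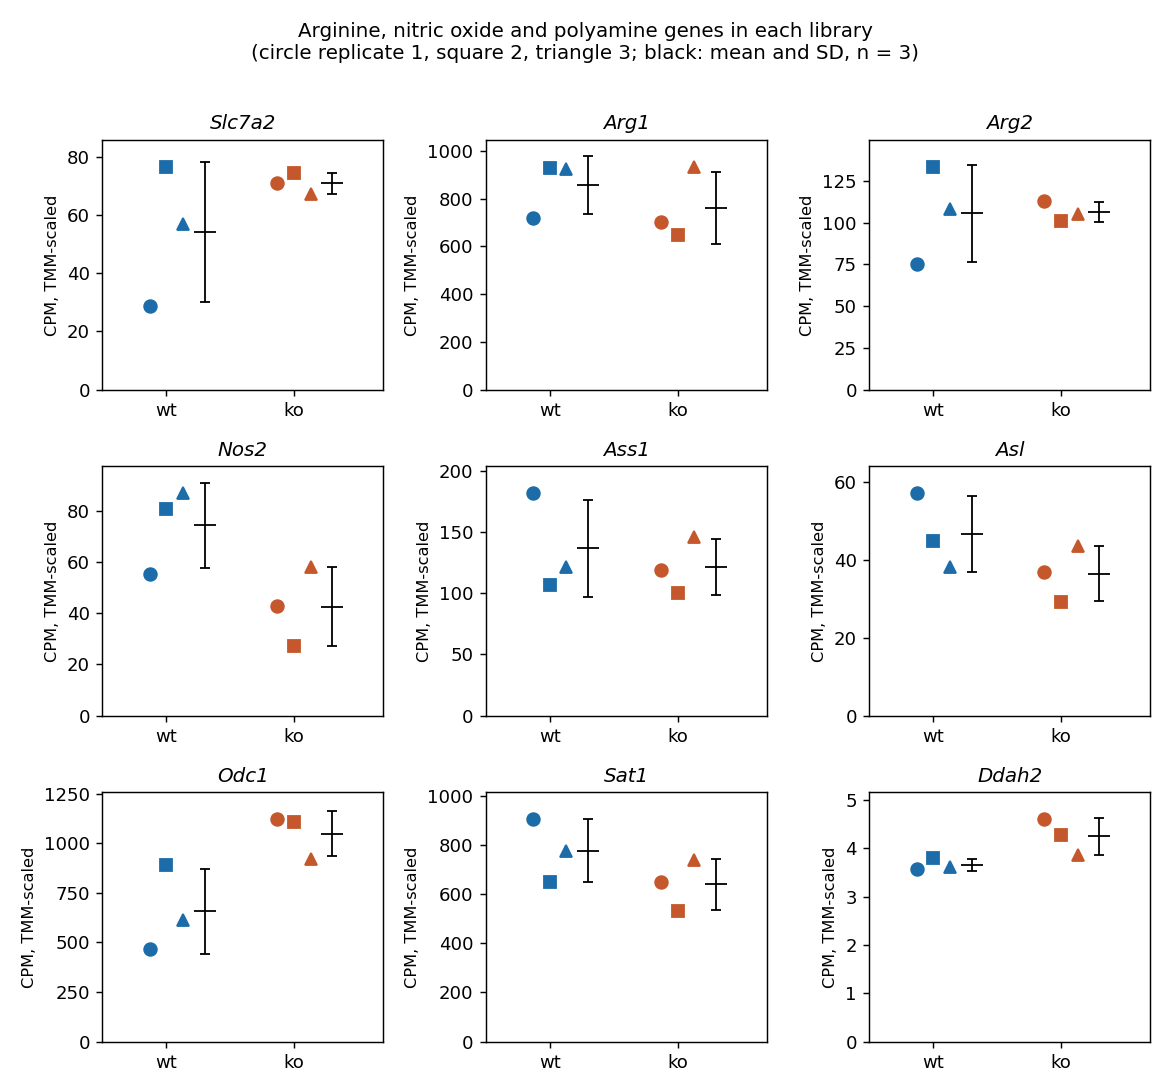
CPM scaled by TMM (vertical axes, from 0) of each of the 9 genes in the 3 wt (blue) and 3 ko (orange) libraries; circles, squares and triangles are replicates 1, 2 and 3, and black marks are the mean and SD. The ko points lie above all wt points for Odc1 and Ddah2 alone, and for Nos2 only ko replicate 3 (58.0) reaches above a wt library (wt replicate 1, 55.4).

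**Figure D2:**
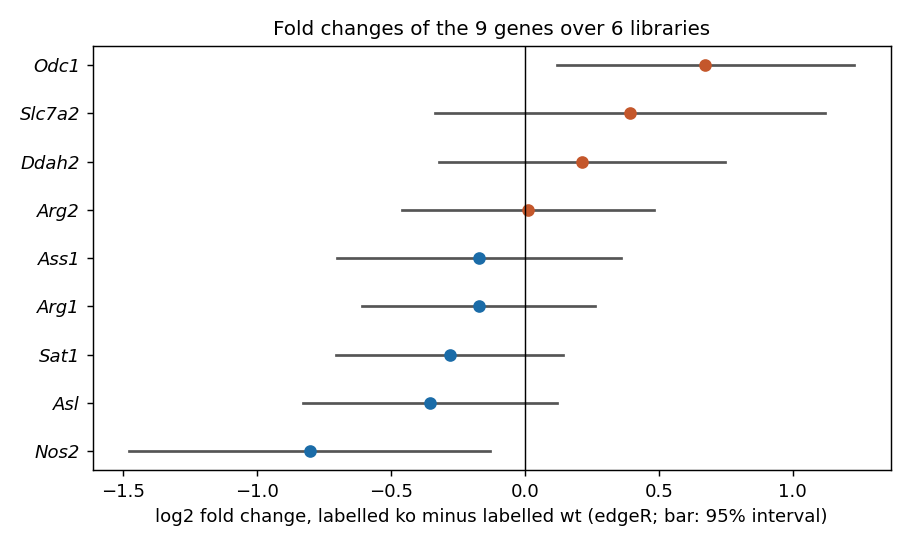
Log2 fold change, ko minus wt, of each gene (horizontal axis) with its 95% interval from edgeR over 6 libraries; orange marks positive and blue marks negative estimates. The intervals of Odc1 (0.12 to 1.23) and Nos2 (-1.48 to -0.13) leave out 0, those of the other 7 genes include it, and none of the 9 passes the adjusted threshold.

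Arg1 and Nos2 were among the polarization markers that the study read in cultured cells, with a quantitative PCR primer pair for each. The primers are shown because they fix which part of each mRNA that assay reads, whereas the counts here are summed over each gene. Both pairs were matched to GRCm38 (GENCODE M21 transcripts).
Arg1 forward: cattggcttgcgagacgtagac
Arg1 reverse: gctgaaggtctcttccatcacc
Nos2 forward: gagacagggaagtctgaagcac
Nos2 reverse: ccagcagtagttgctcctcttc
The Arg1 primers lie in exons 5 and 6 of the main transcript, at chr10:24916786-24916807 and chr10:24916369-24916390 on a gene read from the minus strand, and enclose 124 bases of 1 of 3 annotated transcripts. The Nos2 primers lie in exons 14 and 15, at chr11:78945715-78945736 and chr11:78945905-78945926 on the plus strand, and enclose 127 bases of 2 of 3 annotated transcripts.

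Per transcript length, the 9 genes spanned from some of the most abundant mRNAs of these libraries to a scarce one. The neutrophil markers S100a9 (778 to 1819 FPKM) and S100a8 (469 to 1018 FPKM) were also high. Which cells each mRNA came from was not tested. Levels between genes are given in FPKM, as the mean over the 6 libraries. Arg1 was the highest at 545 FPKM, which ranked 147 among the 22377 genes, followed by Sat1 at 427 FPKM and Odc1 at 302 FPKM. Sat1 was above Arg1 in wt replicate 1 (512 against 453 FPKM) and below it in the other 5 libraries. Ass1 at 78.7 FPKM and Arg2 at 75.0 FPKM were close, and their ranges over libraries overlapped. Asl at 17.4 FPKM and Nos2 at 13.4 FPKM overlapped as well. Slc7a2 at 6.98 FPKM was below Nos2 except in ko replicate 2 (9.42 against 7.22 FPKM), and Ddah2 at 1.97 FPKM came last.

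Slc7a2 encodes a cationic amino acid transporter that carries arginine across the plasma membrane (chr8:40862396-40922308, plus strand). It was read at 28.6, 76.6 and 57.1 CPM in wt and at 71.2, 74.5 and 67.3 CPM in ko. The low value belonged to wt replicate 1, and wt replicate 2 was above all ko libraries. The means were 54.1 ± 24.1 CPM (SD, n = 3) and 71.0 ± 3.62 CPM (SD, n = 3), and the log2 fold change of 0.39 (SE 0.31, edgeR adjusted p = 0.475) fell to 0.08 without wt replicate 1.

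Of 10 other genes of arginine and ornithine transport, 0 passed the adjusted test, 7 had higher and 3 lower estimates, and the median log2 fold change was 0.10. Slc3a2, the heavy chain shared by several transporters, was the most abundant at 32.5 FPKM, followed by its partner Slc7a7 at 11.8 FPKM. Slc7a7, the y+LAT1 light chain that exchanges cationic for neutral amino acids, was read at 55.2, 46.8 and 42.2 CPM in wt and at 30.9, 26.9 and 40.8 CPM in ko. All ko values lay below all wt values, ko replicate 3 narrowly, and its log2 fold change was -0.55 (SE 0.19, edgeR adjusted p = 0.328). The mitochondrial carrier Slc25a29 was higher in every ko library, at a level near 1 CPM (0.81, SE 0.38, edgeR adjusted p = 0.333).

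Arg1, the cytosolic arginase (chr10:24915221-24927484, minus strand), was read at 718, 931 and 925 CPM in wt and at 703, 649 and 933 CPM in ko. The highest of all 6 values was that of ko replicate 3, and wt replicate 1 lay close to ko replicate 1. Means were 858 ± 121 CPM in wt and 761 ± 151 CPM in ko (SD, n = 3), a log2 fold change of -0.17 (SE 0.19, 95% interval -0.61 to 0.26, edgeR adjusted p = 0.597). An exact two-sided permutation test of the mean log2 CPM gave p = 0.4, where 3 against 3 cannot give less than 0.1. No difference of Arg1 beyond the spread between libraries was therefore seen in either direction, and the interval holds changes of up to 0.61 downward. Leaving out 1 library moved the estimate between -0.35 (ko replicate 3) and -0.076 (ko replicate 2) in edgeR. With both wt replicate 1 and ko replicate 3 left out, the estimate was -0.46 in edgeR (adjusted p = 0.136) and -0.50 in DESeq2 (adjusted p = 0.0208). In that fit DESeq2 called 1283 of 12071 genes (10.6%). For Arg1 these were the lowest wt library and the highest ko library, so leaving them out widens the difference by construction.

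Arg2, the mitochondrial arginase (chr12:79130777-79156301, plus strand), was read at 75.3, 133 and 108 CPM in wt and at 113, 101 and 105 CPM in ko. The ko values lay inside the range of the wt values. The log2 fold change was 0.01 (SE 0.20, 95% interval -0.46 to 0.48, edgeR adjusted p = 0.978). Arg2 overlaps Vti1b on the other strand, with 285 bases of shared sequence in their transcripts. Strandedness of the counting is not stated, so part of the Arg2 reads could belong to Vti1b. Vti1b held 1969 to 2594 counts, at most 76.7% of the Arg2 count. Within a library, Arg1 stood 5.96 to 9.15 times above Arg2 in FPKM, with overlapping groups.

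Nos2, the inducible nitric oxide synthase (chr11:78920787-78960254, plus strand), was lower in the ko libraries by estimate. It was read at 55.4, 80.7 and 87.0 CPM in wt and at 42.9, 27.1 and 58.0 CPM in ko, from counts of 1134 to 3255. The groups overlapped in a single pair, ko replicate 3 lying just above wt replicate 1. Means were 74.4 ± 16.7 CPM and 42.6 ± 15.4 CPM (SD, n = 3), a log2 fold change of -0.80 (SE 0.29, 95% interval -1.48 to -0.13) or 1.74-fold lower. The edgeR adjusted p was 0.328, so the difference did not pass, and the exact two-sided permutation p was 0.2, where the smallest possible is 0.1. With ko replicate 3 left out, 6 of the 9 genes did not overlap (Arg1, Nos2, Asl and Sat1 lower, Odc1 and Ddah2 higher), beside 49.7% of all genes.

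Whether Nos2 passed depended on the tool and the libraries. Without wt replicate 1, DESeq2 gave -0.998 (adjusted p = 0.0499), in a fit that called 78 of 11844 genes (0.659%), and edgeR gave -0.98 (adjusted p = 0.406). Without ko replicate 3, DESeq2 gave -1.11 (adjusted p = 0.0283) with 435 of 12221 genes called (3.56%). Without both libraries it gave -1.30 (adjusted p = 7.93e-06), beside -1.27 in edgeR (adjusted p = 0.101). The groups overlapped for Nos2 only in wt replicate 1 and ko replicate 3. Leaving out either of them removes that overlap by construction, so these fits add no support for a difference. Scaled to the summed macrophage markers in place of TMM, the estimate was -0.37, where the median of all genes stood at 0.57.

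The ratio of Arg1 to Nos2, which does not depend on library scaling, separated the groups. In FPKM it was 37.7, 33.5 and 30.9 in wt and 47.6, 69.7 and 46.8 in ko. Every ko library exceeded every wt library, and Arg1 was the more abundant mRNA in all 6. Relative to Arg1, 351 of 13883 genes (2.53%) were lower in ko without overlap, Nos2 among them. This ratio was chosen with earlier results known and carries no test.

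**Figure D3:**
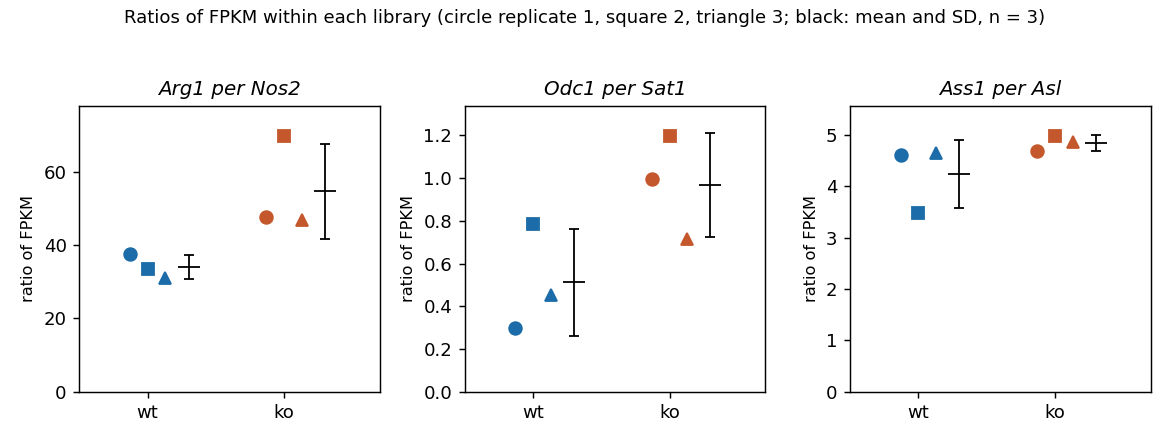
Ratios of FPKM within each library (vertical axes, from 0) for Arg1 per Nos2, Odc1 per Sat1 and Ass1 per Asl; blue is wt, orange is ko, symbols are replicates, and black marks are the mean and SD of 3 libraries. The ko points lie above the wt points for Arg1 per Nos2 (46.8 to 69.7 against 30.9 to 37.7), narrowly for Ass1 per Asl, and overlap for Odc1 per Sat1, where ko replicate 3 (0.713) is below wt replicate 2 (0.787).

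Ddah2 encodes an enzyme of the family that degrades methylarginines, which inhibit nitric oxide synthases (chr17:35059035-35062095, plus strand). It was read at 3.57, 3.81 and 3.61 CPM in wt and at 4.60, 4.27 and 3.86 CPM in ko, from 127 to 181 counts. The ko values lay above the wt values by a narrow margin, ko replicate 3 being close to wt replicate 2, and the separation was lost under RLE or upper quartile scaling. The log2 fold change was 0.21 (SE 0.23, edgeR adjusted p = 0.594). A share of 13.3% of all genes tested was higher in ko without overlap.

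Of 14 tested genes for other synthases, electron donors, cofactor synthesis and inhibitors of nitric oxide synthase, 0 passed the adjusted test, 8 had higher and 6 lower estimates, and the median log2 fold change was 0.01. The groups did not overlap for 4 of the 14, with 3 higher in ko and 1, Por, lower. Over all genes tested, 13.3% were higher and 12.6% lower without overlap. Por, cytochrome P450 reductase, a flavoprotein akin to the reductase domain of the synthases, stood at 75.3 FPKM and was read at 286, 342 and 238 CPM in wt and at 176, 158 and 198 CPM in ko. The groups were well apart, and its log2 fold change of -0.70 (SE 0.17, edgeR adjusted p = 0.328) ranked 62 by p among all genes tested. Of the other synthases, Nos3, the endothelial form, was below 1 CPM in every library. Nos1, the neuronal form, was read at 1.01, 16.5 and 12.2 CPM in wt and at 21.5, 19.4 and 12.7 CPM in ko. The lowest value was wt replicate 1 and the groups overlapped, with a log2 fold change of 0.85 (SE 0.77, edgeR adjusted p = 0.529).

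The 5 tested methylarginine sources, which are protein arginine methyltransferases, all had higher estimates (median log2 fold change 0.17), and 0 passed the adjusted test. Over all genes, 7228 of 13884 had higher estimates. Prmt1, the main type I enzyme and the most abundant at 38.5 FPKM, was read at 53.7, 64.3 and 55.3 CPM in wt and at 73.8, 78.4 and 64.7 CPM in ko. Its groups nearly touched without overlap, with a log2 fold change of 0.32 (SE 0.13, edgeR adjusted p = 0.328). Carm1, the next at 11.2 FPKM, had overlapping groups.

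Ass1 and Asl recycle citrulline to arginine. Ass1, argininosuccinate synthase (chr2:31470207-31520672, plus strand), was read at 182, 107 and 122 CPM in wt and at 119, 100.2 and 146 CPM in ko. Apart from the high wt replicate 1, the groups mixed. The log2 fold change was -0.17 (SE 0.23, edgeR adjusted p = 0.669), and it was 0.08 without wt replicate 1. The processed pseudogene Gm5424 matches Ass1 over 1240 bases at 99.52% identity and has no counts listed. How reads shared by them were counted is not stated.

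Asl, argininosuccinate lyase (chr5:130011258-130029247, minus strand), was read at 57.1, 44.7 and 38.1 CPM in wt and at 36.8, 29.2 and 43.5 CPM in ko. The means were 46.6 ± 9.68 CPM and 36.5 ± 7.13 CPM (SD, n = 3), and ko replicate 3 lay inside the wt range. The log2 fold change was -0.35 (SE 0.20, 95% interval -0.83 to 0.12, edgeR adjusted p = 0.371), and it was -0.19 without wt replicate 1 and -0.23 without ko replicate 2. The FPKM ratio of Ass1 to Asl was 4.62, 3.48 and 4.64 in wt and 4.68, 4.98 and 4.87 in ko, nearly touching at wt replicate 3 and ko replicate 1. Relative to Asl, 1829 of 13883 genes (13.2%) were higher in ko without overlap.

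Of 4 other tested genes listed for arginine synthesis and the urea cycle, 0 passed the adjusted test, and estimates were higher for 2 and lower for 2. These were Got1, Got2, Fh1 and Mdh1. The urea cycle genes Cps1 and Otc had no counts listed, and Nags, at 0 to 2 counts, was not tested. The aspartate transaminases supply the nitrogen donor of Ass1. Got1 stood at 132 FPKM with overlapping groups. Got2, at 55.5 FPKM, was read at 162, 148 and 131 CPM in wt and at 123, 108 and 128 CPM in ko (log2 fold change -0.29, SE 0.13, edgeR adjusted p = 0.328). Its groups were apart by a small margin, ko replicate 3 being close to wt replicate 3.

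Odc1, ornithine decarboxylase, the rate-limiting enzyme that makes putrescine (chr12:17544794-17551505, plus strand), was higher in each ko library than in any wt library. It was read at 468, 890 and 613 CPM in wt and at 1122, 1106 and 920 CPM in ko. The closest pair was ko replicate 3 and wt replicate 2, and the lowest value was wt replicate 1. The means were 657 ± 214 CPM and 1049 ± 112 CPM (SD, n = 3), a log2 fold change of 0.67 (SE 0.24, 95% interval 0.12 to 1.23) or 1.60-fold higher, and the edgeR adjusted p was 0.328.

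The size of the Odc1 difference rested partly on single libraries. The estimate was 0.48 in edgeR without wt replicate 1 (adjusted p = 0.406), and 0.95 without wt replicate 2 (adjusted p = 0.258). DESeq2 without wt replicate 2 gave 0.94 (adjusted p = 0.00375), in a fit that called 361 of 13083 genes (2.76%). That library was the wt library closest to the ko group, so leaving it out widens the gap by construction. With all 6 libraries DESeq2 gave 0.65 (adjusted p = 0.203). Scaled to the macrophage markers, the estimate was 1.24, where the median of all genes stood at 0.57. Mouse transcripts of 14 other genes align to Odc1 over at least 200 bases at 90% identity or more, of which 13 are processed pseudogenes. Only 1 of these 14 genes is in the table, at 15 to 33 counts, at most 0.09% of the Odc1 count. The others have no counts listed, and how reads shared with them were counted is not stated.

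The stretch just upstream of Odc1 is shown because Odc1 had the smallest p of the 9 genes in the edgeR fit over 6 libraries, whereas in DESeq2 over the same libraries that of Nos2 was smaller. It runs over chr12:17544623-17544793 of GRCm38.p6 on the plus strand, 171 bases from the RefSeq promoter table, and ends before the first annotated Odc1 base. Capitals mark GCGTG on either strand, the letters that the study names as the STAT3 site in its binding assay at the Ccrl2 promoter.
Odc1 upstream: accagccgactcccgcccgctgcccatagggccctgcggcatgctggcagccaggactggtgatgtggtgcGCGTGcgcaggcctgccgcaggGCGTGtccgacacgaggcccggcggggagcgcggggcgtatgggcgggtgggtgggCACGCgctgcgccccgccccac
The window is 77.19% G and C and holds 3 matches. Of 32851 promoter entries, 18.9% hold GCGTG in their first 171 bases and 1% hold at least as many matches. Those bases lie 250 to 80 bases upstream of the start that each entry uses, and the rest of each entry was not searched. The shares are not matched for G and C content. The STAT palindrome TTCNNNGAA, found in 5.01% of entries, and the E-box CACGTG, found in 3.41%, are not in these letters. Only 4 of the 9 genes have an entry. Ass1 holds 2 matches of GCGTG, and Ddah2 and Sat1 hold 0. These are matches of letters and were not set against any binding data.

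Other genes of polyamine synthesis and of its control had higher estimates in 7 of 9 and lower in 2 of 9 tested, beside 7228 higher of all 13884. The median log2 fold change of these 9 genes was 0.28. None passed the adjusted test, and 5 of the 9 had an unadjusted p under 0.05, all higher, against 6.9% of all genes. Of these 5, Srm, Sms and Mtap overlapped between the groups and were lowest in wt replicate 1. Amd1, S-adenosylmethionine decarboxylase, which supplies the aminopropyl donor, was read at 26.2, 36.7 and 34.9 CPM in wt and at 51.5, 59.6 and 41.0 CPM in ko (log2 fold change 0.64, SE 0.19, edgeR adjusted p = 0.328). The groups did not overlap. Reads of Amd1 may be shared with its near copy Amd2, which was below 1 CPM.

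Azin1 encodes antizyme inhibitor 1, which protects ornithine decarboxylase from antizyme, and was read at 250, 274 and 272 CPM in wt and at 302, 342 and 324 CPM in ko. All ko libraries were above all wt libraries, with a log2 fold change of 0.28 (SE 0.11, edgeR adjusted p = 0.328). Oaz1, the antizyme itself and the most abundant of the list at 281 FPKM, had a log2 fold change of -0.18 (SE 0.14, edgeR adjusted p = 0.456) with overlapping groups.

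The remaining synthetic enzymes were named after their values were seen. Spermidine synthase Srm was read at 14.7, 37.1 and 27.5 CPM in wt and at 48.3, 53.9 and 34.0 CPM in ko. Spermine synthase Sms was read at 21.5, 32.4 and 36.5 CPM in wt and at 43.3, 56.2 and 35.3 CPM in ko. Mtap, which salvages the methylthioadenosine left by both reactions, was read at 13.7, 35.0 and 25.2 CPM in wt and at 47.0, 50.0 and 32.4 CPM in ko. For all 3 genes wt replicate 1 was the lowest library and ko replicates 1 and 2 the highest, while ko replicate 3 fell within the wt range. Their log2 fold changes were 0.78 for Srm (SE 0.33), 0.58 for Sms (SE 0.24) and 0.81 for Mtap (SE 0.33), each with an edgeR adjusted p of 0.328. Without wt replicate 1 the estimates were 0.49, 0.38 and 0.52. Npm1 was also lowest in wt replicate 1, at 142 CPM.

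**Figure D4:**
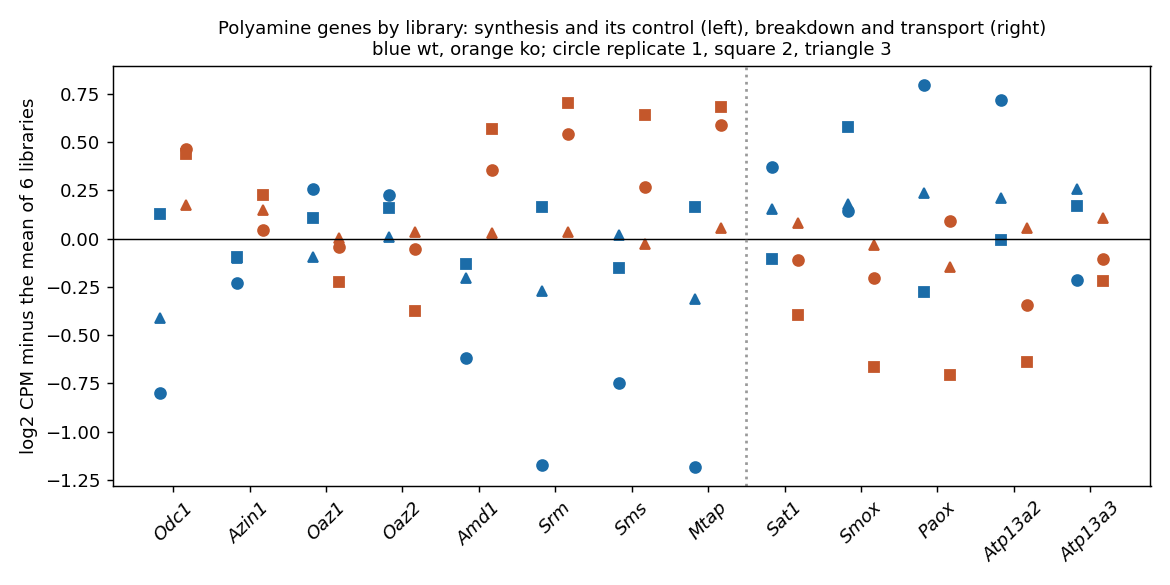
Log2 CPM minus the mean of the 6 libraries (vertical axis) for 13 polyamine genes with a mean above 3 CPM, synthesis and its control at the left of the dotted line, breakdown and transport at the right; blue is wt, orange is ko, and circles, squares and triangles are replicates 1, 2 and 3. Orange points lie above all blue points for Odc1, Azin1 and Amd1 and below them for Smox, and the blue circle, wt replicate 1, is the lowest point for Srm, Sms and Mtap.

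Sat1, spermidine/spermine acetyltransferase, which marks polyamines for oxidation and export (chrX:155213132-155216449, minus strand), was read at 905, 649 and 777 CPM in wt and at 648, 531 and 740 CPM in ko. The groups overlapped, with wt replicate 2 next to ko replicate 1 and below ko replicate 3. The means were 777 ± 128 CPM and 640 ± 105 CPM (SD, n = 3), a log2 fold change of -0.28 (SE 0.18, 95% interval -0.70 to 0.14, edgeR adjusted p = 0.404). Without wt replicate 1 it was -0.16, and without ko replicate 2 it was -0.17. The FPKM ratio of Odc1 to Sat1 was 0.297, 0.787 and 0.453 in wt and 0.995, 1.20 and 0.713 in ko. Sat1 exceeded Odc1 in every wt library and in 2 of the 3 ko libraries, narrowly in ko replicate 1. The processed pseudogenes Gm5552 and Gm46610 align to Sat1 over 318 and 316 bases at 96.86% and 96.2% identity, and have no counts listed. For Sat1, too, the counting of shared reads is not stated.

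Of 6 other tested genes of polyamine breakdown and transport, 5 had lower and 1 a higher estimate, with a median log2 fold change of -0.38, and 0 passed the adjusted test. Smox, spermine oxidase, the most abundant at 96.5 FPKM, was read at 710, 961 and 728 CPM in wt and at 559, 405 and 629 CPM in ko. No ko library reached the wt range, and its log2 fold change was -0.59 (SE 0.20, edgeR adjusted p = 0.328). Atp13a2, a lysosomal polyamine exporter named after its values were seen, was read at 159, 95.9 and 112 CPM in wt and at 76.0, 61.8 and 100.1 CPM in ko, overlapping in ko replicate 3 (log2 fold change -0.62, SE 0.24, edgeR adjusted p = 0.328, and -0.39 without wt replicate 1). Atp13a3, a plasma membrane polyamine importer at 24.1 FPKM, had overlapping groups.

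Ornithine can also be turned into proline and glutamate. Of 7 tested genes of these routes, 5 had higher and 2 lower estimates, the median log2 fold change was 0.27, and 0 passed the adjusted test. Oat, ornithine aminotransferase, the most abundant at 39.1 FPKM, had a log2 fold change of -0.10 (SE 0.11, edgeR adjusted p = 0.607) with overlapping groups.

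Prodh, proline dehydrogenase, was read at 1.49, 3.50 and 2.11 CPM in wt and at 5.70, 6.54 and 4.73 CPM in ko. The groups were well apart at this low level, and the log2 fold change was 1.26 (SE 0.36, edgeR adjusted p = 0.328). Pycrl, a pyrroline-5-carboxylate reductase, was read at 7.48, 6.14 and 5.59 CPM in wt and at 8.65, 9.57 and 8.64 CPM in ko, also without overlap (log2 fold change 0.48, SE 0.20, edgeR adjusted p = 0.328).

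The downstream use of spermidine is hypusination of the translation factor eIF5A. All 4 genes of this step had higher estimates, as had 7228 of the 13884 genes tested. The median log2 fold change of the 4 genes was 0.25, and 0 of them passed the adjusted test. Eif5a was read at 299.6 FPKM on average, near the level of Odc1, with a log2 fold change of 0.05 (SE 0.12, edgeR adjusted p = 0.825). Dhps, deoxyhypusine synthase, stood at 17.4 FPKM (log2 fold change 0.27, SE 0.14, edgeR adjusted p = 0.347). Genes of creatine and agmatine, further uses of arginine, had higher estimates in 1 and lower in 3 of 4 tested. The log2 fold changes were -0.26 and -0.19 for the synthesis genes Gatm and Gamt. They were -0.20 for the creatine kinase Ckb and 0.38 for the transporter Slc6a8, and all 4 had overlapping groups. The most abundant were Ckb at 27.6 FPKM and Slc6a8 at 7.14 FPKM.

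In all, 63 of the 74 other genes listed for these routes were tested. None passed the adjusted test in edgeR, and 40 had higher and 23 lower estimates, beside 7228 higher and 6656 lower over all genes. In edgeR, 12 had an unadjusted p under 0.05 (8 higher, 4 lower) against 15.2% of all genes (6.9% higher, 8.31% lower). The groups did not overlap for 18 of the 63 (14 higher, 4 lower), against 25.9% of all genes (13.3% higher, 12.6% lower). DESeq2 called 0 of these pathway genes with all 6 libraries and 8 without wt replicate 1 and ko replicate 3, where it called 10.6% of all genes. Scaling to the summed macrophage markers moved the median of all genes by 0.54, to 0.57. The estimates of Arg1, Ass1, Asl, Sat1 and Got2 were then above 0 but below that median. Relative to it, Arg1 stood at -0.25, Ass1 at -0.22, Asl at -0.40, Sat1 at -0.34, Nos2 at -0.94 and Odc1 at 0.67. Odc1, Slc7a2 and Ddah2 were higher in ko without overlap, in a scaling where 31.4% of all genes did not overlap.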

How the data were processed

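The files that the authors deposited give raw counts for each gene in 6 libraries and, beside them, FPKM values. On 19899 genes FPKM was checked to be the count over the library total and over a length that is the same in all libraries. The submitters' processing notes name the build mm10. The aligner, counting tool, annotation and strandedness are not given in the sources used here. Groups come from the labels, with 3 libraries each, described as separate biological samples, and p-values measure the spread between these samples. A legend of the study gives fewer mice per group for these data than there are libraries, and which libraries it covers is not stated.

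The counts were fitted with edgeR 4.0.16 in R 4.3.3 (filterByExpr, TMM factors, glmQLFit, glmQLFTest), with Benjamini-Hochberg adjustment over 13884 genes and a threshold of 0.05. SEs are the absolute log2 fold change over the square root of F, and intervals are at 95%. Values per library are TMM-scaled CPM. log2 CPM used a prior count of 2. Total counts of 36550775 to 38147320 put the upper limit behind a count of 0 (3 counts) at 0.0716 to 0.0845 CPM, counting error only. Alternatives were RLE and upper quartile factors, other count filters, DESeq2 1.42.0, limma 3.58.1 on log2 of FPKM plus 1 or plus 0.1, a replicate block and libraries left out; scaling to the macrophage marker list was added after seeing the data. The scripts were tested on simulated data.

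The 9 genes, the 9 lists of pathway genes and the 7 marker lists were chosen with earlier results of these data known. Other pathway genes are named where the groups did not overlap (at most 6 in each direction, by p) or where they had the highest mean FPKM of a list (2 in each); some genes that these rules pick are not reported here. Srm, Sms, Mtap, Atp13a2, Nos1, Nos3 and Amd2 were named after their values were seen. Coordinates are GRCm38, GENCODE M21, matched by symbol. Same-numbered libraries correlated at -0.241, 0.06 and -0.337 in their deviations from the group means, so the numbers were not used as pairs. No 2 libraries of a group agreed within sampling noise.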

Additional observations from a re-analysis of the deposited data

How the results depend on the processing

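With 6 libraries, edgeR called 0 genes under each scaling and filter, limma called 0, and DESeq2 called 36, none of the 9 genes. The count of the 9 genes whose groups did not overlap was 2, and 1 under RLE or upper quartile factors. Their median log2 fold change of -0.17 was -0.0014 and -0.0011 in limma with FPKM plus 1 and plus 0.1, and 0.35 when scaled to the macrophage markers (added after seeing the data). Under that scaling the estimates of Arg1 (0.32), Ass1 (0.35), Asl (0.16), Sat1 (0.23) and Got2 (0.24) changed sign, each staying below the median of all genes there, 0.57. Arg2 reversed at -0.0047 under RLE, -0.0016 without a filter and -0.011 in DESeq2. FPKM scaling moved the median of all genes by 0.14 (plus 1) and 0.15 (plus 0.1).

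With 1 library, or wt replicate 1 and ko replicate 3, left out, edgeR called 0 genes each time. DESeq2 called 78 genes without wt replicate 1, 361 without wt replicate 2, 488 without wt replicate 3, 1 without ko replicate 1, 5 without ko replicate 2 and 435 without ko replicate 3. Over both tools the calls ranged from 0 to 1283 genes, from 0 to 2 of the 9 genes and from 0 to 8 of the other pathway genes, the highest coming from DESeq2 on the 4 libraries. The median of the 9 genes ranged from -0.35 to -0.057 and non-overlapping genes from 2 to 6. The 6 came without ko replicate 3. Estimates ranged from -1.30 to -0.57 for Nos2, 0.45 to 0.95 for Odc1, -0.22 to 0.21 for Arg2, -0.35 to 0.084 for Ass1, -0.53 to -0.19 for Asl and -0.43 to -0.16 for Sat1. The cause was not tested. With a group of 2, the spread is pooled over both groups.

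With the replicate block, edgeR called 0 genes (1606 at an unadjusted p under 0.05), the median of the 9 genes was -0.15 and no call changed. Ddah2 had the lowest depth, and its closest pair of libraries held 141 and 135 counts, a gap within counting error.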

Other observations

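Among 9829 tested genes with a mean log2 CPM above 2, those whose centred log2 CPM lay close to Arg1 over the 6 libraries included Vav3 and Dab2, with root mean square differences of 0.0381 and 0.0545, where Arg1 itself varied by 0.22. Dab2 was read at 516, 651 and 641 CPM in wt and at 504, 455 and 724 CPM in ko, with the same high ko replicate 3 as Arg1.

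The genes closest to Nos2 were F5, Cysltr1 and Ccrl2, at root mean square differences of 0.155, 0.172 and 0.173, where Nos2 varied by 0.566. Ccrl2, an atypical chemoattractant receptor that the study followed, was read at 831, 1494 and 1162 CPM in wt and at 665, 471 and 783 CPM in ko. F5 was read at 90.2, 134 and 147 CPM in wt and at 84.2, 59.8 and 104 CPM in ko, overlapping like Nos2 in ko replicate 3 and wt replicate 1. These genes were picked for likeness over 6 libraries of 2 groups, and they carry no test.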
